A study of Homo sapiens with 4 samples.

Results

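The genes described here were almost silent in control HL-60 cells and clearly transcribed after all-trans retinoic acid (ATRA). They were chosen by their levels in the authors' table of 1648 genes, with a printed control mean below 10 and a printed ATRA mean of at least 100 normalised reads. Of 73 such genes, 25 were left out by name, among them solute carriers, CC chemokines, LILR and CEACAM genes, long noncoding RNAs, CD38 and other named genes, which left 48 of the 1648. HL-60 is a human leukaemia cell line from peripheral blood, and its disease is given in the labels as acute promyelocytic leukemia. The ATRA group received 1 µM ATRA dissolved in ethanol for 4 days, and the control group received the same volume of ethanol. Medium and compound were renewed once, and neither group carried any other alteration. Poly(A) RNA was sequenced from 2 samples of each group, and the labels do not say whether these were separate cultures.

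ATRA, an acid form of vitamin A, binds retinoic acid receptors. These sit on DNA together with retinoid X receptors and change from repressors to activators of transcription once the ligand is bound. In myeloid leukaemia cells ATRA is known to stop division and to drive maturation towards granulocytes, with new receptors and adhesion molecules at the cell surface.

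A normalised read is a read count divided by the size factor of its library, a scale for depth. The table prints group means, from which the whole reads of both libraries were restored. Within a group the libraries carry the letters a and b, which cannot be matched to the labels' replicate numbers. The same letter does not link a control library to an ATRA library. Reads in the listed genes came to between 3288055 and 5576516 per library, and total depth is unknown because only listed genes have values. Since the same contrast chose the 48 genes, their levels and folds are a description and carry no test. With 2 samples against 2 the libraries alone give the error, and every counting interval below covers counting error only.

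Low counts in each control library follow from the limit on the control mean, and the reads are given here as a description. Summed over all 48 genes there were 189 reads in control a and 146 in control b, against 21965 in ATRA a and 16173 in ATRA b. Per 1000000 reads of listed genes that was 49.7 and 44.4 in the controls and 3939 and 3274 with ATRA. No reads at all were counted in either control library for 3 genes, ALS2CL, LHX2 and COL4A2. A single control read was counted for 5 genes, 2 reads for 1 gene, 3 reads for 5 genes and between 4 and 20 reads for the other 34. In bulk RNA, more cells that express a gene and more RNA per cell cannot be told apart.

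In the table, 47 of the 48 genes stood under the authors' adjusted p limit of 0.01 and were higher with ATRA, where 8.28% of the 12265 tested genes were. The exception was DEFA1B. The libraries of the groups did not overlap in 48 of 48 genes, where this held, with ATRA higher, for 61.8% of the 1648 listed genes. Both counts follow from how the genes were chosen. Values are given for 45 of the 48 genes, and counts and sums are over all 48. Among the 45, the highest value in a control library was 16.5 normalised reads (DEFA1B in control a), and the lowest in an ATRA library was 83.8 (CLEC4E in ATRA b). The median log2 fold change was 6.32, an 80.3-fold difference, and it ran from 3.69 for RIPK3 to 11.69 for DAAM2. Over all 1018 listed genes that were higher with ATRA the median was 1.87.

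**Figure D1:**
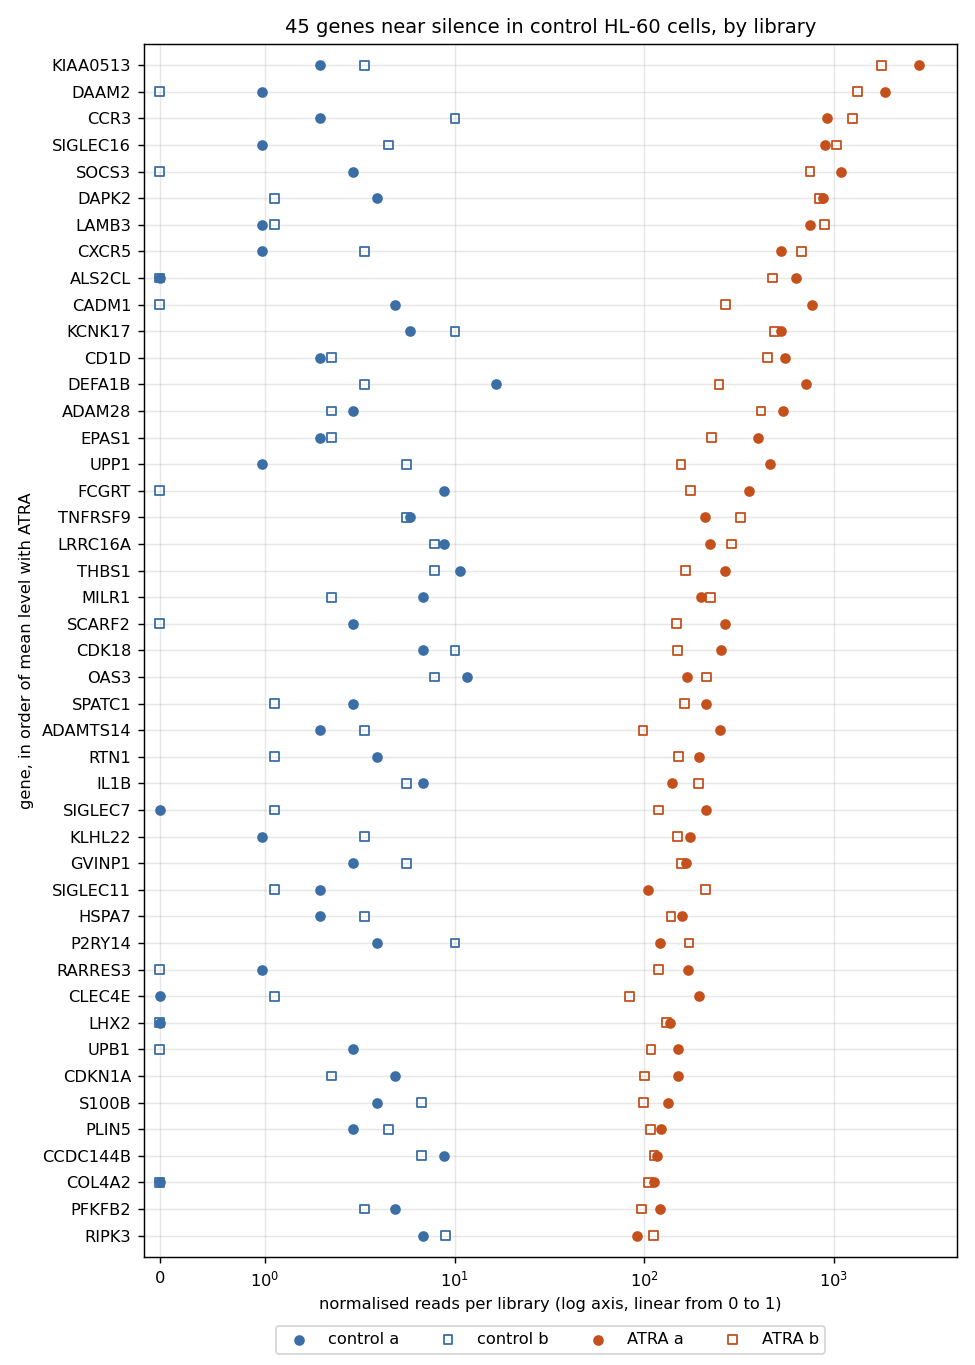
Normalised reads of 45 of the 48 genes in control a and b (blue) and ATRA a and b (orange), 1 point per library, on an axis that is logarithmic above 1 and linear below. Every control point lies at or below 16.5 and every ATRA point at or above 83.8, and 15 of the 90 control points lie at 0.

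The limits cut through a continuum. By restored means, and among the genes with values given here, RIPK3 stood just inside the ATRA limit with 102 normalised reads. Next came PFKFB2 with 108.9 and COL4A2 with 109.3. Just outside it stood LGALS9C with 98.1, SEMA4C with 96.7 and USP32P2 with 96.2. On the control side DEFA1B with 9.94, OAS3 with 9.75 and THBS1 with 9.26 were inside, and ABCC6 with 10.2 was outside.

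Of the summed ATRA level 50.8% came from 8 genes. KIAA0513, a gene whose function is little known, alone made up 12.7% of it. Levels of different genes can be set beside each other only per kb of transcript. On that scale DEFA1B stood highest with 978 normalised reads per kb, followed by CCR3 with 667 and SOCS3 with 338. The first place rests on ATRA a, where DEFA1B had 1453 per kb and CCR3 566, since in ATRA b DEFA1B had 503 and CCR3 767. CCDC144B was lowest with 13.2 per kb, and the median was 65.1.

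To show what lies in front of these genes, RefSeq promoters (GRCh38.p14, from 250 bases before the start to 50 after it) were searched on both strands, and 32 of the 48 genes had an entry. The 8-letter C/EBP word TTGCNNAA, bound by a factor family of granulocyte maturation, was present in 4 of the 32 promoters (12.5%), in 10.6% of all 27305 promoters and in 7.75% of those of other listed genes. These 4 stretches, of 80 bases each, are shown with the word in capitals because their genes span a receptor for chemokines, a lectin, a kinase and a cytokine.
CCR3 (chr3:46242265-46242344, plus strand): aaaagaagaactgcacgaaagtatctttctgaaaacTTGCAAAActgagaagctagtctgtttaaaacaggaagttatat
CLEC4E (chr12:8540969-8541048, minus strand): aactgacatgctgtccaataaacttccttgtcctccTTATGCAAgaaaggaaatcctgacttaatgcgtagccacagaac
DAPK2 (chr15:64046656-64046735, minus strand): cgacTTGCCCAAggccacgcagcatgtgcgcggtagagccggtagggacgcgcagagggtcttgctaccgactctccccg
IL1B (chr2:112836950-112837029, minus strand): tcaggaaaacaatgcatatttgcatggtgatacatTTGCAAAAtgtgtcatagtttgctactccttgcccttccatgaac

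In CLEC4E the word lies on the opposite strand. Counting the start base as 0, it began at -80 in CCR3, -107 in CLEC4E, -246 in DAPK2 and -215 in IL1B. The interferon-stimulated response element, searched as GAAA, any 2 bases and GAAA, was present in 1 of the 32 promoters (3.12%) and in 3.65% of all promoters. That promoter was the one of OAS3, shown here with the element in capitals because it held it at -143 and again at -12.
OAS3, upstream copy (chr12:112938296-112938375, plus strand): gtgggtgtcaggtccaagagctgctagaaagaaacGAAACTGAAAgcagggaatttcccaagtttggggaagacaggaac
OAS3, copy at the start (chr12:112938427-112938506, plus strand): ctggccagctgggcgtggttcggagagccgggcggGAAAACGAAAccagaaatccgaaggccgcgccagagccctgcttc

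The other words were counted in the same way, with their share of all promoters beside them. The PU.1 word GAGGAAGT, named for a factor of myeloid cells, was in OAS3 and UPB1. This was 6.25%, against 2.54% of all promoters and 4.34% of those of other listed genes. The STAT word TTCNNNGAA was in IL1B, LHX2, RTN1, THBS1 and TNFRSF9 (15.6%, against 7.88% of all and 6.56% of other listed genes). The AP-1 word TGANTCA was in SIGLEC11 and TNFRSF9 (6.25%, against 7.76% and 5.54%). The half-sites AGGTCA and AGTTCA, which nuclear receptors bind, were in 7 promoters (21.9%, against 22.8% and 16.6%). Direct repeats of such half-sites spaced by 5 bases, the DR5 element of retinoic acid receptors, whose letters contain the half-sites, were sought in 10 combinations and were in 0 of the 32 and in 18 of the 27305 promoters. CCAAT was in 37.5% (against 35.7% of all and 33.4% of other listed genes). GGGCGG, the GC box, was in 59.4% (against 44.6% and 66.4%), and TATAAA in 3.12% (against 11.95% and 6.30%). A match of letters is a description and not a bound site.

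CpG dinucleotides, the sites of DNA methylation, were counted as well. The median ratio of CpG observed to CpG expected from base composition was 0.632, against 0.789 for the 1174 other listed genes and 0.580 for all promoters. A ratio of at least 0.6 was found in 16 of the 32 (50%), in 70.4% of the other listed genes and in 49.0% of all promoters. For these 32 promoters the median was nearer to that of all promoters than to that of the other listed genes, and the differences were not tested.

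**Figure D2:**
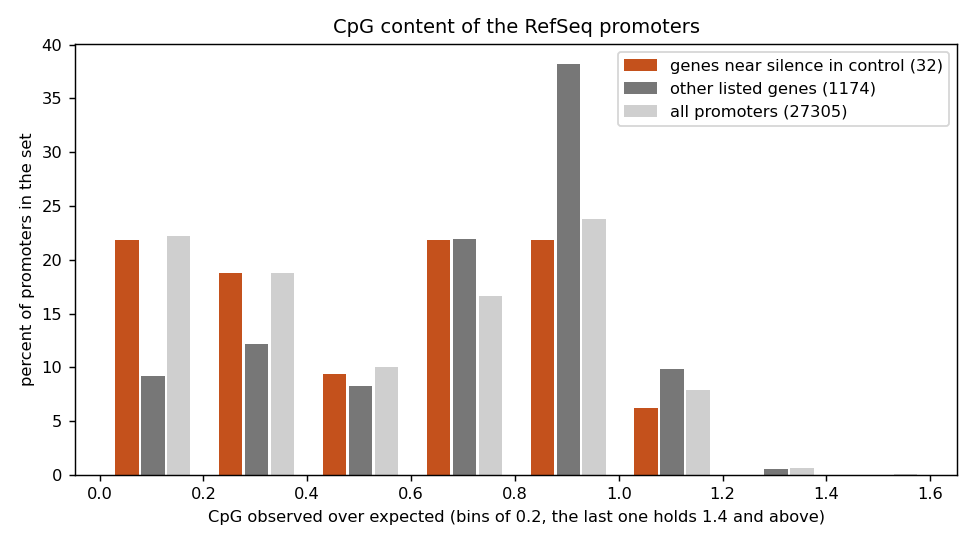
Percent of promoters (vertical axis) in bins of the CpG observed over expected ratio (horizontal axis) for the 32 promoters of genes near silence in control, 1174 other listed genes and all 27305 promoters. The bin from 0.8 to 1 holds 21.9%, 38.2% and 23.7% of them.

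Surface receptors of leukocytes were the largest group, with 13 genes and a median log2 fold change of 7.16. CCR3, the eotaxin receptor (chr3:46172382-46308197 on GRCh37), stood at 1.94 and 10.1 normalised reads in control a and b and at 927 and 1257 in ATRA a and b. By the means it was 182-fold higher with ATRA, and the controls held 2 and 9 reads. CXCR5, the CXCL13 receptor known from B cells, stood at 0.972 and 3.35 in the controls and at 524 and 679 with ATRA. Both of these chemokine receptors were higher in ATRA b than in ATRA a.

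The sialic acid binding lectins gave 3 genes. SIGLEC16 (chr19:50472857-50479076), an activating receptor, stood at 0.972 and 4.47 in the controls and at 899 and 1034 with ATRA. SIGLEC11, its inhibitory partner (chr19:50452242-50464429), stood at 1.94 and 1.12 in the controls and at 105 and 211 with ATRA. The partner genes lie 8428 bases apart on opposite strands and are nearly identical in the part that binds sialic acid, so reads may have been split between them and their separate levels are uncertain. SIGLEC7, an inhibitory receptor known from natural killer cells, had 1 control read and stood at 213 and 119 with ATRA, a ratio of 297 (95% counting interval 57.6 to 12794).

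CD1D, which presents lipid antigens to natural killer T cells, stood at 1.94 and 2.23 in the controls and at 553 and 447 with ATRA. FCGRT, the neonatal Fc receptor that spares IgG from breakdown, had 9 reads in control a and none in control b and stood at 358 and 176 with ATRA. TNFRSF9, the costimulatory receptor 4-1BB, stood at 5.83 and 5.59 in the controls and at 209 and 323 with ATRA. These genes differed in which ATRA library was the higher one. MILR1, an inhibitory receptor of mast cells, stood at 6.81 and 2.23 against 199 and 223. SCARF2, a scavenger receptor, had 3 control reads and stood at 268 and 148 with ATRA, a ratio of 143 (95% counting interval 45.9 to 658). P2RY14, the receptor for UDP-glucose, stood at 3.89 and 10.1 against 121 and 173. It was the lowest of the receptors by fold, at 21.0. CLEC4E, also known as Mincle, a lectin that senses fungal and mycobacterial glycolipids, had 1 control read and stood at 194 and 83.8 with ATRA, a ratio of 248 (95% counting interval 48.4 to 10770).

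The families of these receptors are given as counts of listed genes beside the table's own shares. Over the whole table, 13.4% of tested genes were listed, and of the listed genes 61.8% were higher with ATRA. Of 15 SIGLEC genes 7 were listed, 5 higher and 2 lower. SIGLEC15 was as silent in the controls, at 0 and 1.12, and stood at 86.4 and 31.9 with ATRA, below the limit. SIGLEC10 was already present and went from 451 and 381 to 1529 and 1067. SIGLEC6 went the other way, from 534 and 491 to 223 and 113, and so did SIGLEC8, a receptor of eosinophils, from 104 and 93.9 to 20.9 and 6.98.

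Of 23 chemokine receptors 7 were listed, 6 higher and 1 lower, also to be read against those shares. CCR1 went from 295 and 383 to 4797 and 4783, CXCR2 from 1181 and 1188 to 2147 and 2597, and CXCR3 from 39.9 and 5.59 to 219 and 139. CCR8 went from 234 and 177 to 6.37 and 0.997, a 55.8-fold lower mean. Of 10 P2RY genes 3 were listed. P2RY13, the ADP receptor that lies 47770 bases from P2RY14, went from 11.7 and 23.5 to 2276 and 2811, and P2RY2 from 7771 and 8366 down to 3837 and 4595. Of 5 CD1 genes CD1C was listed beside CD1D and went from 0 and 1.12 to 27.3 and 42.9. CLEC4E was the single CLEC4 gene listed of 8.

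**Figure D3:**
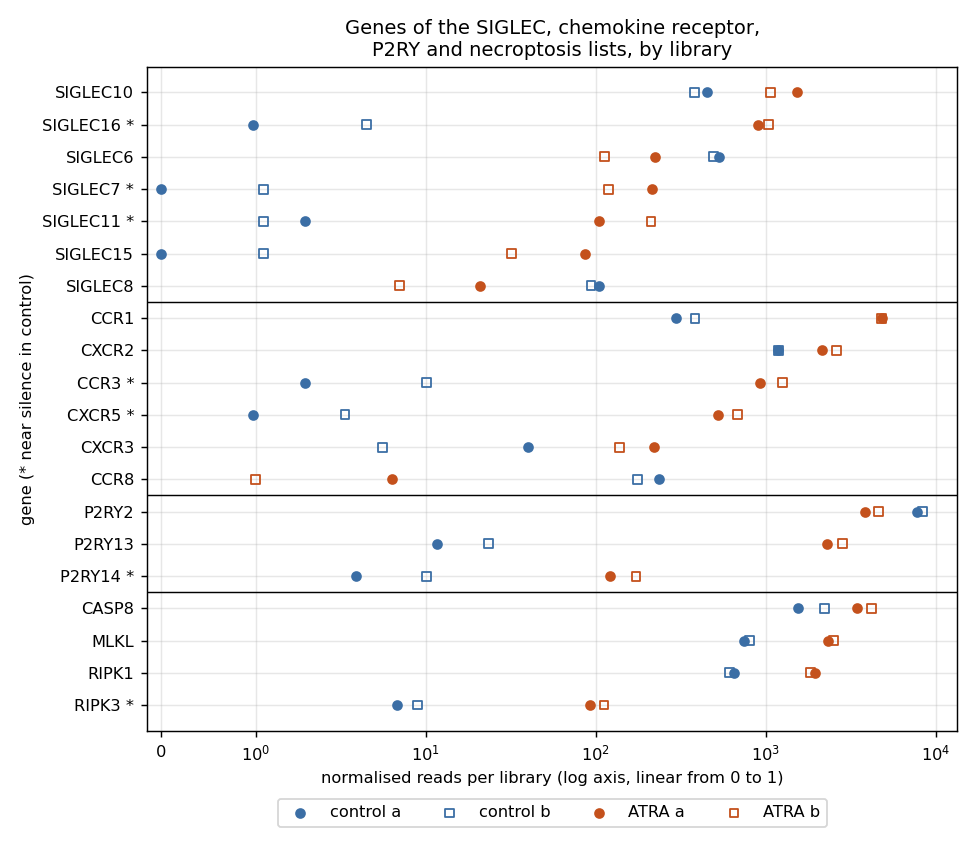
Normalised reads per library (log axis, linear from 0 to 1) of listed SIGLEC, chemokine receptor, P2RY and necroptosis genes in control a and b (blue) and ATRA a and b (orange), with an asterisk on genes near silence in control. In SIGLEC6, SIGLEC8, CCR8 and P2RY2 the control points lie to the right of the ATRA points.

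Signalling, cell death and cell cycle genes numbered 9, with a median log2 fold change of 6.23. DAAM2, a formin-related protein of Wnt signalling and actin assembly (chr6:39760074-39872653), had 1 control read and stood at 1872 and 1340 with ATRA. Its ratio, 3303, was the highest of the 48 genes and had a 95% counting interval of 558 to 122961, so its place in the order rests on that single read. SOCS3, which shuts off cytokine signalling through JAK kinases (chr17:76352859-76356158), had 3 control reads and stood at 1096 and 750.0 with ATRA, a ratio of 633 (95% counting interval 204 to 2897). It was the single listed gene of 8 in the SOCS family.

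DAPK2, a calmodulin-regulated death kinase whose promoter stretch is printed above, stood at 3.89 and 1.12 in the controls and at 883 and 846 with ATRA. Its relative STK17A was listed too and went from 1164 and 1231 to 2921 and 2186, a 2.13-fold difference against 345-fold for DAPK2. ALS2CL, a relative of the Rab5 exchange factor alsin, had 0 control reads and stood at 629.6 and 477 with ATRA. By the lower end of the exact 95% counting interval it was at least 289.8-fold higher. Set against a floor of 3 reads over both controls, 1.56 normalised reads, the ratio was 355, and against 3 reads in control b or control a alone it was 165 or 189.6.

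LRRC16A, now CARMIL1, a regulator of actin capping protein, stood at 8.75 and 7.82 in the controls and at 222 and 290.2 with ATRA. CDK18, a cyclin-dependent kinase, stood at 6.81 and 10.1 against 256 and 149.6. KLHL22, an adaptor of a cullin ubiquitin ligase, stood at 0.972 and 3.35 against 174 and 151. These levels were moderate, all within 2 times between the ATRA libraries. CDKN1A, the cell cycle inhibitor p21, stood at 4.86 and 2.23 against 151 and 101, and it was the single listed gene of 7 CDK inhibitors.

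RIPK3, the kinase that starts necroptosis, stood at 6.81 and 8.94 in the controls and at 91.9 and 112 with ATRA, the smallest fold of the 48 genes at 12.9. Of 6 necroptosis genes 4 were listed and all 4 were higher with ATRA, where 61.8% of all listed genes were. RIPK1 went from 652 and 615 to 1941 and 1824, and MLKL, which RIPK3 activates, went from 746 and 802 to 2323 and 2506. CASP8, the protease that blocks necroptosis, went from 1544 and 2209 to 3430 and 4171. RIPK3 thus was the one of the 4 that was near silence in control cells.

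The transcription factors were EPAS1 and LHX2. EPAS1, the hypoxia-inducible factor 2 alpha (chr2:46520806-46613836), stood at 1.94 and 2.23 in the controls and at 398 and 227 with ATRA, and it was the single listed gene of 10 in the hypoxia list. LHX2, a LIM homeobox factor, had 0 control reads and stood at 136 and 131 with ATRA. It was at least 69.2-fold higher by the same interval, with a ratio of 85.6 to the floor over both controls and of 39.8 or 45.8 to the floor in control b or control a alone.

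Secreted, matrix and adhesion genes numbered 9, with a median log2 fold change of 6.13. LAMB3, the beta chain of an epithelial laminin (chr1:209788215-209825770), had 2 control reads and stood at 746 and 898 with ATRA, a ratio of 787 (95% counting interval 218 to 6503). COL4A2, a chain of basement membrane collagen, had 0 control reads and stood at 113 and 106 with ATRA. It was at least 56.6-fold higher by the same interval, with a ratio of 70.1 to the floor over both controls and of 32.6 or 37.5 to the floor in control b or control a alone. These were the 2 listed genes among 9 genes of that laminin and of collagen IV, so the partner chains LAMA3 and COL4A1 were not in the table.

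CADM1, an immunoglobulin-like adhesion molecule, had 5 reads in control a and none in control b and stood at 766 and 268 with ATRA. ADAM28, a membrane protease of lymphocytes, stood at 2.92 and 2.23 in the controls and at 543 and 414 with ATRA. ADAMTS14, a procollagen protease, stood at 1.94 and 3.35 against 251 and 98.7. Among 31 ADAM and ADAMTS genes 4 were listed, these 2 higher and ADAM22 and ADAMTS1 lower. THBS1, thrombospondin 1, stood at 10.7 and 7.82 against 267 and 165. IL1B, the inflammatory cytokine, stood at 6.81 and 5.59 against 140.1 and 194. The listed genes of its pathway, 3 of 11, were all higher, with CASP1 and IL1RAP beside it. S100B, a calcium-binding protein, stood at 3.89 and 6.70 against 133 and 99.7.

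Among the 5 genes of metabolism, both ends of a route were met. UPP1, which splits uridine into uracil, stood at 0.972 and 5.59 in the controls and at 459 and 157 with ATRA. UPB1, the last enzyme of uracil breakdown, had 3 control reads and stood at 151 and 109, a ratio of 89.0 (95% counting interval 28.4 to 409). They were the 2 listed of 7 genes on the uracil and uridine list, and the enzymes between them, DPYD and DPYS, were not in the table. RARRES3, now PLAAT4, a phospholipid-modifying enzyme named as a responder to retinoic acid receptors, had 1 control read and stood at 171 and 119.7 with ATRA, a ratio of 299 (95% counting interval 50.2 to 11168). PLIN5, a lipid droplet protein, stood at 2.92 and 4.47 against 123 and 108. PFKFB2, which sets the level of the glycolysis activator fructose 2,6-bisphosphate, stood at 4.86 and 3.35 against 121 and 96.7. PLIN5 was the single listed gene of 5 perilipins, and PFKFB2 of 4 PFKFB enzymes.

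The interferon-related genes were OAS3 and GVINP1. OAS3, an enzyme of antiviral RNA decay whose promoter carries the 2 printed elements, stood at 11.7 and 7.82 in the controls and at 169 and 212 with ATRA, and no other of the 4 OAS family genes was listed. GVINP1, a pseudogene of a very large interferon-inducible GTPase, stood at 2.92 and 5.59 against 166 and 158. That both genes stood well apart from their controls largely follows from the limits that chose them.

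A further 7 genes had varied roles. KIAA0513 (chr16:85061388-85127836) stood at 1.94 and 3.35 in the controls and at 2809.5 and 1785 with ATRA, the highest level in reads. DEFA1B, an alpha defensin of neutrophil granules, stood at 16.5 and 3.35 in the controls and at 718 and 248 with ATRA. Its libraries were uneven in both groups, and its copies DEFA1 and DEFA3 are near-identical, so its level is uncertain. KCNK17, a potassium channel, stood at 5.83 and 10.1 against 525 and 489, and SPATC1, speriolin, at 2.92 and 1.12 against 212 and 163. RTN1, a reticulon of the endoplasmic reticulum, stood at 3.89 and 1.12 against 196 and 153. In these 3 genes ATRA a was the higher library, by less than 1.5 times. HSPA7, a pseudogene that resembles HSPA6, stood at 1.94 and 3.35 against 158 and 139. CCDC144B, a noncoding relative of CCDC144A with several copies in the genome, stood at 8.75 and 6.70 against 117 and 113. Reads of the last 2 genes may belong to their copies.

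The folds leaned on few control reads. Leaving out control a or control b moved the fold by over 1.5 times in 23 of the 48 genes each, leaving out ATRA a did so in 7 and ATRA b in 1. Without control a, DAAM2 had no control reads left, and its ratio to the floor in control b was 479. Without control b, DAAM2 was 1652-fold higher. SIGLEC16 was 216-fold and 994-fold higher in these settings, DAPK2 773-fold and 222-fold, and CCR3 109-fold and 561-fold. KIAA0513 moved less, to 685-fold and 1181-fold, and LAMB3 moved to 735-fold and 845-fold. DEFA1B was 144-fold and 29.2-fold higher without control a and b, and 24.98-fold and 72.2-fold higher without ATRA a and b. That a gap stayed in each of these genes largely follows from the limits that chose them, and its size was known only roughly.

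Between the ATRA libraries the genes were less even than other listed genes that were higher with ATRA. The higher ATRA library was 1.34 times the lower one in the median, and 8 of the 48 (16.7%) were over 2 times apart. Of the 7 described here, those higher in ATRA a were UPP1 (2.93 times), DEFA1B (2.89), CADM1 (2.86), ADAMTS14 (2.54), CLEC4E (2.31) and FCGRT (2.04), while SIGLEC11 (2.02) was higher in ATRA b. Among 465 other listed genes that were higher with ATRA and had ATRA means in the same range, 6 (1.29%) were over 2 times apart and the median was 1.19 times. The 25 genes left out by name resembled the 48, with 4 (16%) over 2 times apart and a median of 1.297 times. ATRA a was the higher library in 35 of the 48 genes (72.9%) and in 63.4% of the 465. The 465 shared the range of ATRA means but were not matched by level within it. Of the 48, 25 had ATRA means between 100 and 200 normalised reads. No test was made of these differences or of the part that level has in them. Genes of smaller fold with uneven libraries may have missed the authors' adjusted p limit and so be absent from the 465.

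**Figure D4:**
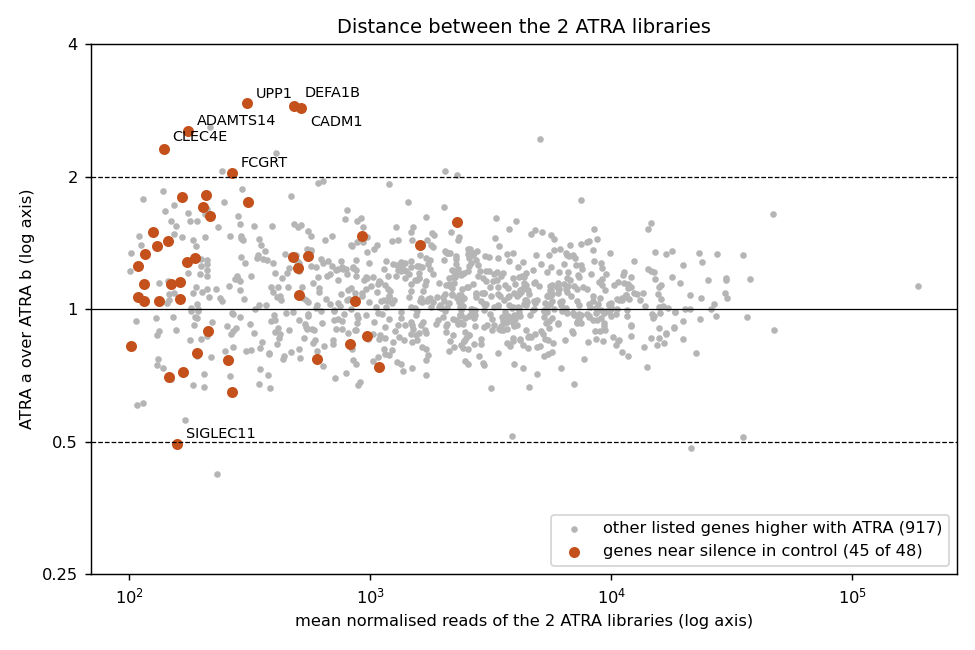
Ratio of ATRA a to ATRA b (log axis) against the mean normalised reads of both (log axis) for 45 of the 48 genes (orange) and 917 other listed genes higher with ATRA and with a mean of at least 100 (grey), with dashed lines at ratios of 0.5 and 2. Of the 7 named genes beyond the dashed lines, 6 lie above and 1 below.

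Several of the 48 genes mark other blood cells, so the marker lists were read as wholes. Of 9 eosinophil markers 4 were listed. CCR3 was higher with ATRA, while IL5RA went from 1008 and 1919 down to 218 and 162, SIGLEC8 was lower as given above, and PRG2, the major basic protein, stood at 213827 and 91701 in the controls and at 37985 and 10604 with ATRA but was not under the authors' adjusted p limit. The summed level of the 4 was 214941 and 93724 in the controls and 39152 and 12029 with ATRA, nearly all of it PRG2. CXCR5 was the single listed gene of 7 B cell markers. Of 7 mast cell and basophil markers MILR1 and KIT were higher and CPA3 lower, with sums of 113 and 108 in the controls and 288 and 305 with ATRA. Of 8 T and NK cell markers TNFRSF9 and CD3E were higher and NKG7 lower, with sums of 235 and 293 against 444 and 537.

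Mature myeloid cells had listed markers as well. Of 9 neutrophil markers CSF3R, CXCR2 and ITGAM were listed and summed to 2497 and 2669 in the controls and 21314 and 18899 with ATRA. Of 7 monocyte and macrophage markers CSF1R and CD68 were listed and summed to 57.4 and 25.7 against 1107 and 947. Markers that were not listed have no value here and cannot be called 0. All samples were of the HL-60 cell line, and what these markers mean for the identity of the cells was not tested.

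The 48 genes were spread over 18 chromosomes, and some stood beside listed neighbours. On GRCh37, 22 of them (45.8%) had another listed gene within 100 kb, and so had 44.7% of all higher genes. Of their 32 neighbour relations 30 were with a gene that was higher with ATRA (93.8%), against 87.5% for all higher genes. KLHL22 and SCARF2, both near silence in control, lie 3693 bases apart. PLIN5 lies 1178 bases from LRG1 (mean 430 to 9040) and 7369 bases from SEMA6B, a semaphorin whose mean went from 46.2 to 10474. HSPA7 lies 629 bases from FCGR2C (11.6 to 153) and RIPK3 932 bases from ADCY4 (36.1 to 395). CCR3 has no gap to CCR1 (339 to 4790). Whether reads of such close neighbours entered the counts was not tested. SPATC1 lies 4234 bases from OPLAH, an enzyme of the glutathione cycle, which was as silent with a control mean of 1.12 and reached 60.5. The neighbour in the opposite direction was ATF5, a transcription factor 15050 bases from SIGLEC11, whose mean went from 9269 to 894.

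Some counts may hold reads of a neighbour. Whether counting used strand is not stated, and 13 of the 48 genes share exon bases with a gene on the other strand, among them DAAM2, DAPK2, CXCR5, LRRC16A, THBS1, SPATC1, SIGLEC7, LHX2, UPB1, CDKN1A, COL4A2 and PFKFB2. In 3 of these the partner was itself listed and higher with ATRA. BCL9L, beside CXCR5, went from a mean of 694 to 2272, CMAHP, beside LRRC16A, from 64.9 to 317, and PARP10, beside SPATC1, from 1004 to 2389. The control means of CXCR5, LRRC16A and SPATC1 themselves were 2.16, 8.29 and 2.02. The share of partner reads in their counts was not tested.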

How the data were processed

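Poly(A) RNA of 2 ATRA and 2 control HL-60 samples was measured. According to the methods and to the submitters' processing notes, reads were trimmed with cutadapt, filtered for ribosomal RNA, quantified with RSEM 1.2.7 on hg19 (GRCh37) and compared with DESeq2 1.4.5, although the column names are those of the older DESeq. The authors deposited 1 table with group means, which are counts divided by size factors, a signal. The authors' fold and log2 columns were not used. The deposited p-value columns served only to find that 12265 genes were tested and that 1645 of the 1648 rows lie under an adjusted p of 0.01.

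The digits of the printed means held 0 zeros in 73360, and 20.2% were 1, so each 1 was allowed to stand for 0. Every mean was then matched to 2 whole read counts divided by size factors (ATRA 1.10 and 1.00, control 1.03 and 0.895), with exactly 1 solution for both groups in 1648 rows. This was tested on simulated data. Each counting interval is an exact 95% binomial interval on summed reads, and a group without reads was set to 3 reads.

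The rule was to name all 48 genes and each family gene that was listed; 3 of the 48 and their values are not reported here. The genes and lists, the limit of 2 times between libraries, 100 kb and a CpG ratio of 0.6 were chosen with earlier results of these data known. Alternatives were other limits, restored or printed means, a pseudocount, unscaled reads, a shorter promoter window and leaving out each library. Positions are from GENCODE on GRCh37 and promoters from RefSeq on GRCh38.p14, so these builds were kept apart. Levels per kb used the transcript length of that annotation. Python 3.11.15, numpy 2.4.6, pandas 2.3.3, scipy 1.17.1 and matplotlib 3.10.9 were used.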

Additional observations from a re-analysis of the deposited data

How the results depend on the processing

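The rule gave 48 genes with printed and with restored means. With a control limit of 5 it gave 35 genes and with 20 it gave 88, and with an ATRA limit of 50 it gave 86 and with 200 it gave 23. Leaving out 1 library, an alternative chosen after the data were seen for this count, gave between 46 and 56 genes, of which 43 to 47 were among the 48. The median log2 fold change was 6.32 in all 4 libraries, 6.39 with printed means, 5.86 with a pseudocount of 1 normalised read, and between 5.89 and 6.35 with 1 library left out, where a control library without reads was set to the floor of 3 reads. Printed means moved the fold by over 1.5 times in 8 genes and the pseudocount in 14. DAAM2 went from 3303 to 1087 with printed means, RARRES3 from 299 to 97.8, SIGLEC7 from 297 to 106 and CLEC4E from 248 to 89.0. No gene changed direction under these settings, which largely follows from the limits that chose the genes. The median distance between ATRA libraries was 1.34 times, and 1.41 times in whole reads. With only the 250 bases before the start, the C/EBP word stayed in 4 promoters, the STAT word went from 5 to 4, the half-sites from 7 to 5 and TATAAA from 1 to 0. No paired analysis was possible because the restored libraries carry no replicate number. Depth limits the folds more than the levels, since 16 of 96 control values were 0.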
